A study of Homo sapiens with 3 samples.

Results

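The genes of 9 transcription factors that specify the pancreas were examined, namely PDX1, PTF1A, SOX9, GATA4, GATA6, FOXA2, NKX6-1, NKX2-2 and ONECUT1. They were chosen by name, out of 20162 protein-coding genes, and all 9 were found in the annotation. The data came from ChIP-seq of PANC-1, an established cell line from a human pancreatic ductal carcinoma, described as wild type and cultured with no treatment listed. The 3 libraries were 1 immunoprecipitation with a rabbit polyclonal antibody against PHF13 made for the study, 1 with an antibody against EZH2, and 1 Input, which served as the control in peak calling. The protocol lists 1 plate of cells, crosslinked with EGS, paraformaldehyde and formaldehyde. A peak was called near a gene when it lay within 5 kb of any annotated transcription start site (TSS) or touched the gene body, and peaks were also collected up to 100 kb beyond the ends of the gene. Since each group had 1 library, no difference could be set against a spread between replicates and no test between antibodies was made. Intervals on shares are 95% Wilson intervals that cover counting error only.

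These factors form the network that builds the pancreas from the gut endoderm. FOXA2, GATA4 and GATA6 open and maintain the endodermal programme, PDX1, PTF1A, SOX9 and ONECUT1 mark the progenitors of the organ, and NKX6-1 and NKX2-2 act in the endocrine branch. In the adult organ, PTF1A is kept in acinar cells, SOX9 and ONECUT1 in ducts, and PDX1 and NKX6-1 in β cells. EZH2, the catalytic subunit of the Polycomb complex PRC2, places H3K27me3, a mark of silent developmental genes that favours CpG-rich start sites. PHF13 carries a PHD finger that binds H3K4me2/3, marks of active or poised start sites. A peak gives occupancy, and neither list measures whether a gene is expressed.

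EZH2 peaks outnumbered PHF13 peaks at these genes. An EZH2 peak was called near 6 of 9 factors, PDX1, SOX9, GATA4, GATA6, NKX6-1 and ONECUT1 (66.7%, interval 35.4 to 87.9), against 30.0% of all protein-coding genes. PHF13 had a called peak near FOXA2 alone (11.1%, interval 1.99 to 43.5), against 31.2% of all protein-coding genes. Peaks of both antibodies near the same gene were found at 0 of 9 factors (interval 0 to 29.9), against 12.6% of protein-coding genes. The intervals for PHF13 and for both antibodies include the shares of all protein-coding genes, so neither count can be told apart from them. PTF1A and NKX2-2 had no near peak in either list (22.2%), against 51.4% of all protein-coding genes. CpG-rich start sites were found at 8 of 9 factors, counted as a CpG ratio (observed over expected CpG, 1 kb around the first TSS) of 0.6 or more. Of all protein-coding genes with such start sites, 30.6% had a near EZH2 peak and 36.0% a near PHF13 peak. Within 100 kb, all 9 factors had an EZH2 peak, against 77.1% of protein-coding genes, and 4 had a PHF13 peak, against 75.6%. In these windows 40 EZH2 and 5 PHF13 peaks were found, out of 21639 and 19039 in the 2 lists. Each peak is described at its summit by the number of ChIP fragments piled up there, by the local background, which is the number expected from Input, by their ratio after adding 1 to each (the fold enrichment), and by −log10 q, the significance that the peak caller gave after correction for multiple testing.

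**Figure D1:**
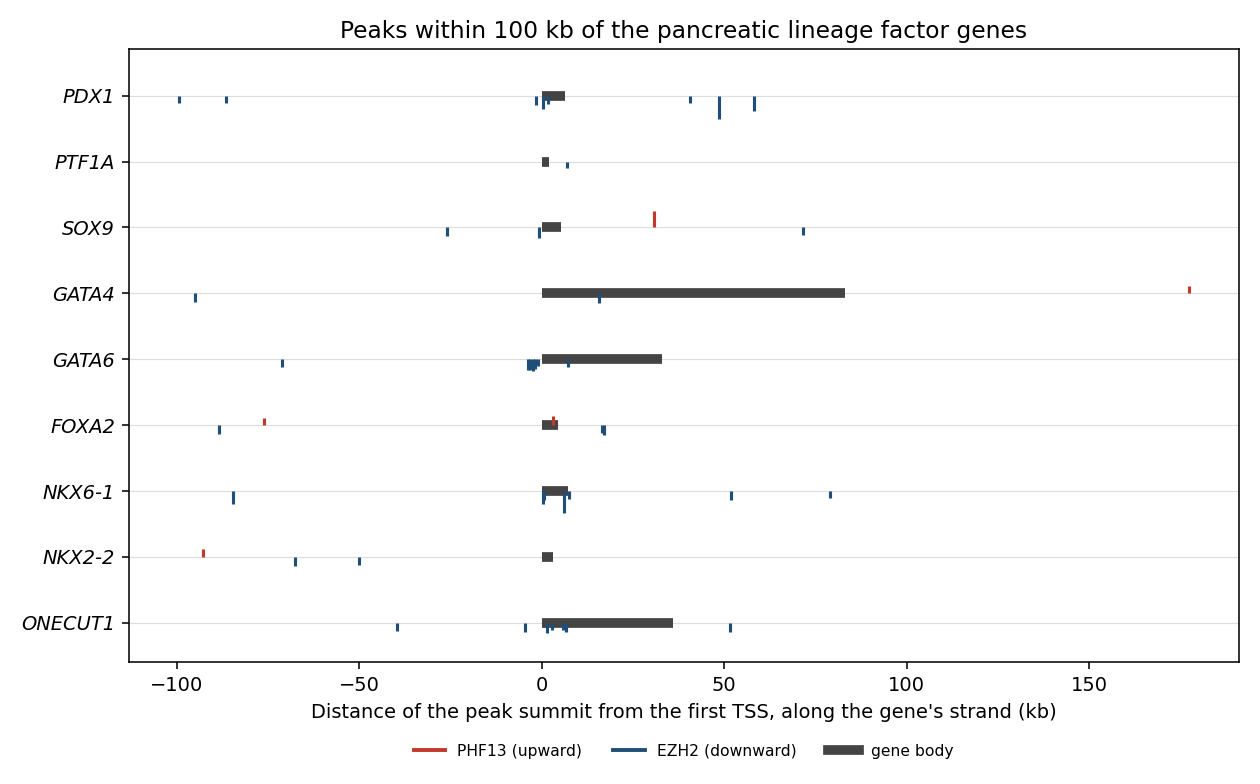
Position of each peak summit within 100 kb of the 9 genes, on the x axis as distance from the first TSS in kb along the gene's strand, with PHF13 drawn upward in red and EZH2 downward in blue. The length of a stroke grows with −log10 q, grey bars are gene bodies, and 29 of the 40 EZH2 strokes lie at PDX1, GATA6, NKX6-1 and ONECUT1 and 11 at the other genes, whereas the 5 PHF13 strokes lie at SOX9, GATA4, FOXA2 and NKX2-2.

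The sequence beneath some of the peaks shows what these sites look like. The stretches are 200 bp of GRCh37 on the plus strand, centred on the summit of the strongest near peak of the gene. For NKX6-1, the stretch was moved by 170 bp within the same peak, into the coding sequence. For PTF1A, which had no near peak, the only EZH2 peak within 100 kb is shown. CpG dinucleotides are in capitals. The 4 stretches shown for near EZH2 peaks held 20 CpGs at NKX6-1, 21 at ONECUT1, 17 at GATA6 and 20 at SOX9, with a GC content between 61.5% and 76%. The FOXA2 stretch under the PHF13 peak had 23 CpGs and a GC content of 72%, and thus resembled the EZH2 stretches in composition.
NKX6-1 (EZH2), chr4:85414445-85414644: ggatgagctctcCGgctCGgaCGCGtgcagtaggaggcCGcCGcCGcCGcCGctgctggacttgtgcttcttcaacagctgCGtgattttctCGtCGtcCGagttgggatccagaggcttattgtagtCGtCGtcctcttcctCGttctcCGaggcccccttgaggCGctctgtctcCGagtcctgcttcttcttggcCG
ONECUT1 (EZH2), chr15:53081801-53082000: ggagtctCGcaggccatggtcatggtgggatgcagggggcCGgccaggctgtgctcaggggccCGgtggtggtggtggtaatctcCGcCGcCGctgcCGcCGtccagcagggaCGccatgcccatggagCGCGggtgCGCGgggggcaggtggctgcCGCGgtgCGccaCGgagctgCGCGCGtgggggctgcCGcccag
GATA6 (EZH2), chr18:19747105-19747304: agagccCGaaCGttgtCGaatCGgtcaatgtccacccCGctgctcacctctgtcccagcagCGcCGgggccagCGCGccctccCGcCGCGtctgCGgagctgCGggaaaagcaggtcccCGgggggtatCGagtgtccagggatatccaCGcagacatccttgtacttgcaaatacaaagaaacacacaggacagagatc
SOX9 (EZH2), chr17:70116362-70116561: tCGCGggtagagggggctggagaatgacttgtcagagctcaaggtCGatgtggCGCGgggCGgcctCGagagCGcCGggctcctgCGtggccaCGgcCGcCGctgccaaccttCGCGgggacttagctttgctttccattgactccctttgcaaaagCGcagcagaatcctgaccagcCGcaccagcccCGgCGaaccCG
PTF1A (EZH2), chr10:23488093-23488292: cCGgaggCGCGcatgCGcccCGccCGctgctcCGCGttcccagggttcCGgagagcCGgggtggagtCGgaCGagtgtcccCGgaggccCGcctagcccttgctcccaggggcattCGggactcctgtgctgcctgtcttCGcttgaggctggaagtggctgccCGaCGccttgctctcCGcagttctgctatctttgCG
FOXA2 (PHF13), chr20:22562960-22563159: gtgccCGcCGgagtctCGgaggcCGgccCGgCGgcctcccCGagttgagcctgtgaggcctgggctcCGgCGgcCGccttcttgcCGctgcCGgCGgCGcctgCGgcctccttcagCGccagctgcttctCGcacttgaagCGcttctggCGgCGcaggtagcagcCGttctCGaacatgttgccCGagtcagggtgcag

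The ONECUT1 and FOXA2 stretches lie entirely within coding sequence, as does that of NKX6-1, which was placed there and does not hold its summit, the GATA6 and SOX9 stretches lie in antisense long non-coding RNA genes, and the PTF1A stretch is intergenic. By contrast, the PHF13 peak downstream of SOX9 was poorer in CpG, and it is shown because it is the strongest PHF13 peak of the set and holds the letters TGACTCA, the site bound by AP-1, for which both strands were searched. Here the match is in capitals. It starts 77 bp before the summit.
SOX9 (PHF13), chr17:70147804-70148003: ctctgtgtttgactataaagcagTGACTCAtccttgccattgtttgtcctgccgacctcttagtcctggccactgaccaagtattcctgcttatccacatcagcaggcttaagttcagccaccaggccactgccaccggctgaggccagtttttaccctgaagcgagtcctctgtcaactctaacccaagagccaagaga

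PDX1, the homeodomain factor without which no pancreas forms, had 3 near EZH2 peaks (ENSG00000139515, chromosome 13, 28494137 to 28500450, plus strand). The strongest ran over 943 bp from 28494346 to 28495288, with its summit in coding sequence of the first exon, 334 bp downstream of the TSS. Its summit held 54 fragments over a local background of 15.7, giving a 3.29-fold enrichment and a −log10 q of 10.5, above 85.5% of the EZH2 list. A second peak of 269 bp lay 1347 bp upstream of the TSS (−log10 q 4.85), and another of 179 bp lay in the intron (−log10 q 4.15). Together they covered 1391 bp of the near region, more than in 92.9% of protein-coding genes. The wider neighbourhood held 5 further EZH2 peaks, of which the widest (1872 bp, −log10 q 23.3, 95 fragments) lay over the coding sequence of CDX2, an intestinal homeobox gene, 11 bp from its TSS. Another of 964 bp lay in an exon of URAD (−log10 q 12.7). The closest PHF13 peak to the TSS of PDX1 was 134550 bp away.

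NKX6-1, a homeodomain factor of β cells and their precursors, carried the most significant near peak of the 9 genes (ENSG00000163623, chromosome 4, 85413138 to 85420445, minus strand). This EZH2 peak of 1365 bp, at 85413568 to 85414932, covered the 3′ part of the gene and had its summit in untranslated exon sequence, 6070 bp downstream of the first TSS. It reached a 4.64-fold enrichment with 69 fragments and a −log10 q of 21.7, above 93.9% of the EZH2 list. At the 5′ end were 2 smaller peaks, the stronger of which (159 bp, −log10 q 9.52) lay 289 bp from a TSS. EZH2 peaks were therefore called at both ends of the gene and not in the stretch between them. The closest PHF13 peak was 192132 bp from a TSS, the largest such distance of the 9 genes.

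GATA6, a zinc finger factor of endoderm and of the pancreatic progenitor, had 6 near EZH2 peaks (ENSG00000141448, chromosome 18, 19749550 to 19782491, plus strand). Of these, 5 lay upstream of the first TSS, with their closer edges 950 to 3479 bp from it, and all 5 summits were in exons or introns of the antisense gene GATA6-AS1. Their summits held 57 to 76 fragments, but the local background was 30.4 to 31.5 fragments, about 7 times the genome-wide floor of 4.42. Fold enrichment was low, from 1.81 to 2.37, and −log10 q was between 2.24 and 7.91. The sixth peak, in an intron 7259 bp downstream of the first TSS, had 19 fragments over a background of 5.11. Among the near peaks, the high background was thus found only at the 5 upstream summits. Background is known only at summits, so how far it extended toward the sixth peak is not shown. The near peaks covered 2082 bp, more than in 97.1% of protein-coding genes.

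ONECUT1, a cut-homeodomain factor that acts upstream of the endocrine progenitors and persists in ducts, had 5 near EZH2 peaks (ENSG00000169856, chromosome 15, 53047250 to 53083275, minus strand). The widest, 1145 bp from 53080866 to 53082010, overlapped a TSS and had its summit in coding sequence, with 75 fragments, a 2.22-fold enrichment and a −log10 q of 6.53. The other 3 peaks in the gene body held 65 to 71 fragments over a background of 35.1 to 37.5, the highest of all near peaks, with enrichments of 1.72- to 1.99-fold. The fifth, 4569 bp from a TSS and upstream of the gene, stood over a background of 11.7. In total 2307 bp were covered, more than in 97.8% of protein-coding genes and the most of the 9 factors. GATA6 and ONECUT1 thus combined the 2 tallest near summits (76 and 75 fragments) with the lowest enrichments and the highest background, which peak calling takes from Input. What part the background had in these calls was not tested.

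SOX9 and GATA4 each had a single near EZH2 peak, of moderate strength. SOX9, an HMG-box factor of pancreatic progenitors and duct cells (ENSG00000125398, chromosome 17, 70117161 to 70122557, plus strand), had a peak of 308 bp whose closer edge was 601 bp upstream of the TSS. It held 25 fragments over a background of 5.31, a 4.12-fold enrichment with a −log10 q of 6.68. GATA4, a zinc finger factor of early endoderm (ENSG00000136574, chromosome 8, 11534468 to 11617511, plus strand), had a peak of 342 bp located 26 bp from an internal TSS and 15756 bp downstream of the first one. It held 23 fragments over a background of 4.98 and was 4.01-fold enriched, with a −log10 q of 5.89. The GATA4 window at the first TSS had a CpG ratio of 0.329, the only one of the 9 below 0.6, whereas the ratio at the peak was 0.962. The EZH2 peak was therefore in CpG-rich sequence at an internal start and not at the first one. CpG ratios at the other starts of GATA4 were not computed. Both genes had less EZH2 peak in their near region (308 and 342 bp) than the 4 genes above (1391 to 2307 bp).

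**Figure D2:**
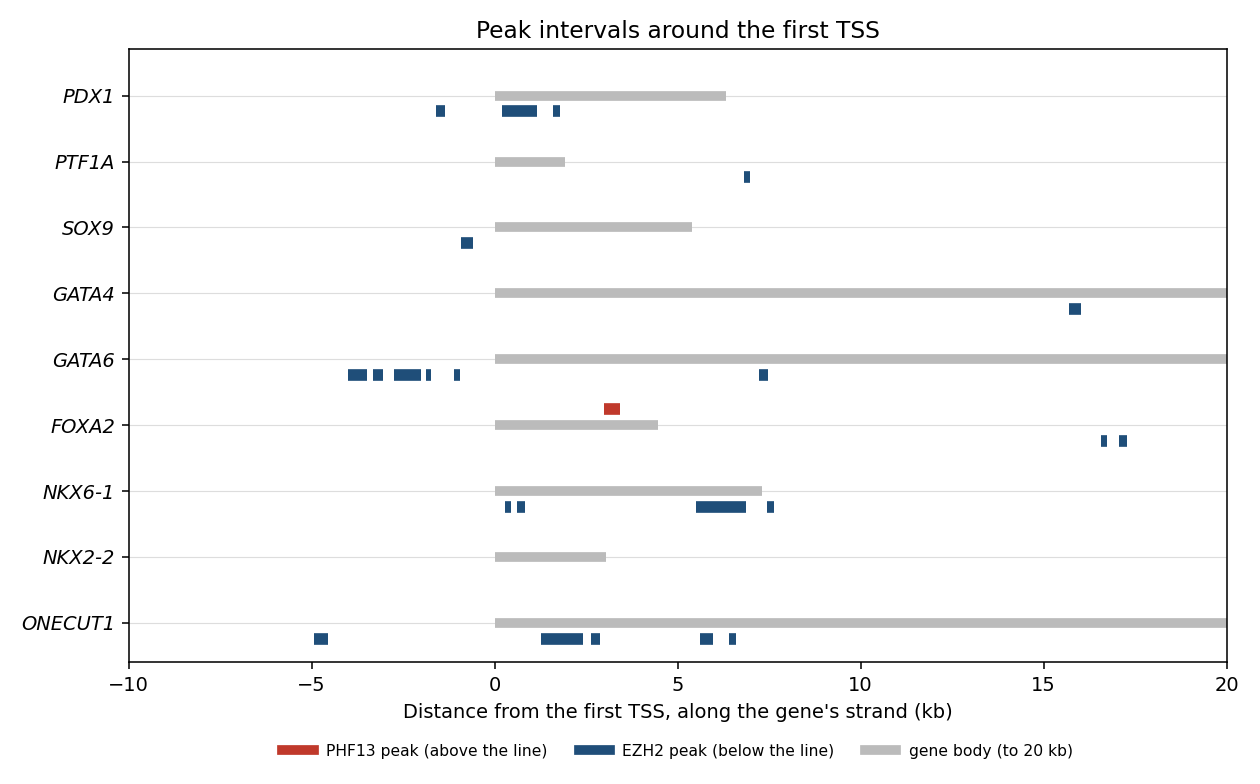
Extent of the called peaks from 10 kb upstream to 20 kb downstream of the first TSS of each gene, in kb along its strand, with EZH2 intervals in blue below and PHF13 intervals in red above the gene body in grey. EZH2 intervals lie on both sides of the first TSS at PDX1, GATA6 and ONECUT1, downstream of it at NKX6-1, GATA4, PTF1A and FOXA2 and upstream of it at SOX9, and the only PHF13 interval lies in the FOXA2 gene body.

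FOXA2, a forkhead factor that opens endodermal chromatin, showed the reverse arrangement (ENSG00000125798, chromosome 20, 22561636 to 22566093, minus strand). A PHF13 peak of 455 bp, at 22562664 to 22563118, had its summit in coding sequence 3033 bp downstream of the first TSS. It held 29 fragments over a background of 8.73, a 3.08-fold enrichment with a −log10 q of 4.27. It was wider than 96.5% of the PHF13 list, but its −log10 q exceeded only 61% of it. The closest EZH2 peaks were 2 of 231 and 164 bp in an intron of LINC00261, a neighbouring long non-coding RNA gene, the nearer of which was 15678 bp from a TSS of FOXA2 and 13132 bp from the PHF13 peak. Their −log10 q was 5.53 and 3.05.

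PTF1A and NKX2-2 lacked a near peak of either antibody, although the start sites of both were CpG-rich. PTF1A, a basic helix-loop-helix factor of acinar cells (ENSG00000168267, chromosome 10, 23481241 to 23483174, plus strand), had a CpG ratio of 0.9 at its first TSS, above 89.7% of protein-coding genes. Its only EZH2 peak within 100 kb was 166 bp wide, 5761 bp downstream of the closest TSS and thus just outside the limit, with a −log10 q of 1.98 that exceeded only 6.12% of the EZH2 list. NKX2-2, a homeodomain factor of endocrine cells (ENSG00000125820, chromosome 20, 21491655 to 21494702, minus strand), had a CpG ratio of 0.797, and its closest EZH2 peak was 49905 bp from the TSS. Around the limit of 5 kb, the closest peaks inside and outside it belonged to ONECUT1 at 4569 bp and NKX6-1 at 5101 bp, and neither changed whether its gene was counted.

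To see where PHF13 was present around these genes, its 5 peaks were followed individually. Of these, 3 had a −log10 q of at least 3, the limit stated for PHF13 peak calling, and the peak at CTSB and the distal one of FOXA2 did not. The strongest was in an intron of the antisense gene SOX9-AS1, at 70147695 to 70148014 and 30534 bp from the TSS of SOX9. It held 38 fragments over a background of 6.18, a 5.43-fold enrichment with a −log10 q of 13.9, above 92.8% of the PHF13 list. In the GATA4 window, the single PHF13 peak was in an intron of CTSB, the cathepsin B gene, 231 bp from a TSS of that gene, with 17 fragments and a −log10 q of 2.95. FOXA2 had a second peak 76068 bp from a TSS (−log10 q 2.09), and NKX2-2 had one 92648 bp away in LINC01727 (−log10 q 3.68). The letters of the AP-1 site were found in 200 bp at the summit of 2 of these 5 peaks, those of SOX9 and CTSB, compared with 11.2% of all PHF13 peaks. Of the 3 with a −log10 q of at least 3, 1 held them, but the share of the whole list above that limit was not computed. They were found at 0 of the 40 EZH2 summits, compared with 2.31% of the EZH2 list. A forkhead core, TGTTTAC on either strand, was found under 0 peaks of either antibody, compared with 4.45% and 2.11% of the PHF13 and EZH2 lists. The letters AGATAA, which zinc finger factors of the GATA family bind, were found under 3 EZH2 peaks (7.5%) and no PHF13 peak, compared with 7.42% and 8.25% of the lists. With so few peaks, the counts of 0 cannot be told apart from the rates of the lists. All of these are matches of letters only.

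No overlap of PHF13 with EZH2 peaks was found in these windows. Of the 5 PHF13 peaks, 0 overlapped an EZH2 peak, compared with 11.7% of all PHF13 peaks and 2.67% of those in single-copy sequence, where all 5 lay, so that 0 of 5 cannot be told apart from the rate of the whole list. The smallest gap between peaks of both lists was 12096 bp, in the FOXA2 window. PDX1, PTF1A, GATA6, NKX6-1 and ONECUT1 had no PHF13 peak within 100 kb at all. The height needed for a call limits what this shows. At the genome-wide floor of 4.23 fragments, a PHF13 summit passed the weakest p of the list (−log10 p 3.62) with 13 fragments. At the highest near background of each gene in the EZH2 list, scaled by the ratio of both floors, 59 fragments would have been needed at ONECUT1, 51 at GATA6, 30 at PDX1 and 28 at NKX6-1, but only 15 at SOX9 and 14 at GATA4. At the lowest near background, 14 fragments would have sufficed at GATA6, 25 at ONECUT1 and 21 at NKX6-1, but 30 would still have been needed at PDX1. At GATA6, ONECUT1 and NKX6-1, the higher limits thus hold only at the sites with the highest background. The scaling is approximate: at 108 single-copy sites with summits of both lists within 50 bp, the median ratio of the backgrounds was 1.02 (quartiles 0.842 and 1.12), whereas the ratio of the floors was 0.956.

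Peak density around the genes was then compared with that of their chromosomes. EZH2 peaks were denser within 100 kb than over the whole chromosome at 7 of 9 factors, all but PTF1A and NKX2-2, against 49.7% of protein-coding genes. The ratio was highest at PDX1 (38.8 against 3.13 peaks per Mb) and NKX6-1 (33.8 against 3.55), both on chromosomes with few peaks. GATA6 had 30.1 against 5.57 and ONECUT1 had 29.7 against 8.22 peaks per Mb. For PHF13, the density exceeded that of the chromosome at 1 factor, FOXA2 (9.78 against 9.11), against 50.2% of protein-coding genes. Of the 40 EZH2 peaks, 32 had a TSS of the factor itself as the closest protein-coding TSS, and 8 were closer to another gene, such as CDX2, GSX1 or CDS1. In the PDX1 window, every EZH2 peak that was not near PDX1 was closer to CDX2 or GSX1, and these peaks add to its density. By their summits, 13 of the 40 were in exons, 18 in introns and 9 between genes. These positions include exons and introns of long non-coding RNA genes.

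The 19 near EZH2 peaks were then compared with the EZH2 list. The median summit held 57 fragments, compared with 25 in the whole EZH2 list and 45 in the 3203 EZH2 peaks of the list that lie within 5 kb of a protein-coding TSS and are CpG-rich (CpG ratio of 0.6 or more over 500 bp at the summit). The median background was 15.7 fragments, compared with 7.28 and 12.4. Median fold enrichment was 2.48, below the 3.13 of the list and the 3.53 of the CpG-rich set near start sites, and median −log10 q was 5.89, between the 3.99 and 9.23 of these sets. Their median width of 269 bp was also between the medians of 216 and 723 bp. The low enrichment, and the height and background above the CpG-rich set, rest on GATA6 and ONECUT1. Without these genes, the 8 near peaks left had medians of 39.5 fragments, a background of 12.1 and a 3.57-fold enrichment. Their height and background were still above those of the whole list. By the same limit, 17 of the 19 near peaks were CpG-rich (89.5%), among them all 8 outside GATA6 and ONECUT1, as were 7 of the other 21 (33.3%), compared with 20.7% of the EZH2 list. Only 2 of the 19 exceeded 1 kb, at NKX6-1 and ONECUT1 (10.5%), compared with 7.67% of the list and 39.9% of the CpG-rich set near start sites. Peaks were counted as called, and some lay close together, as upstream of GATA6, so a peak is not always a separate region. PDX1, GATA6, NKX6-1 and ONECUT1 contributed 17 of the 19, and SOX9 and GATA4 a single peak each. Counted per gene, more than 1 kb was covered at these 4 of 9 factors, against 10.0% of protein-coding genes. None of the 19 and 2 of the other 21, distal to GATA4 and ONECUT1, lay in multi-copy sequence, which underlies 32% of the EZH2 list.

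**Figure D3:**
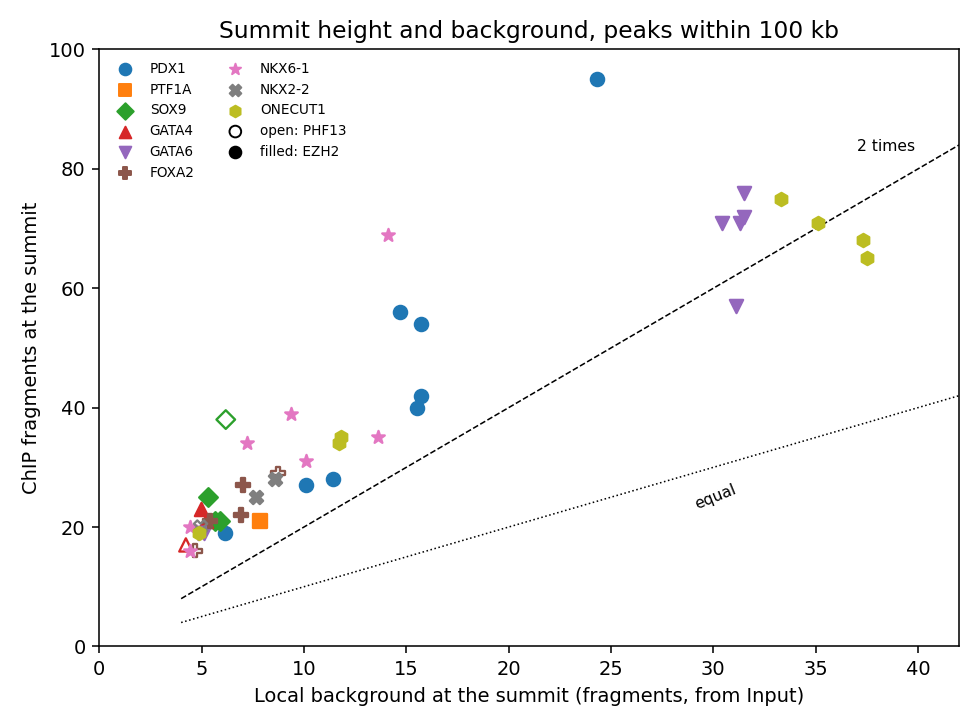
Number of ChIP fragments at the summit (y axis) against the local background from Input (x axis), both in fragments, for the 45 peaks within 100 kb, with a symbol for each gene, filled for EZH2 and open for PHF13, and lines where the height equals the background or is 2 times as high. The 5 upstream GATA6 summits and the 4 in the ONECUT1 gene body stand at 57 to 76 fragments over backgrounds of 30.4 to 37.5, whereas NKX6-1 reaches 69 fragments over 14.1 and the strongest PHF13 summit 38 over 6.18.

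The 9 factors were set beside other genes of the pancreas. Of all protein-coding genes, 30.0% had a near EZH2 peak, 31.2% a near PHF13 peak, 12.6% both and 51.4% neither. Among 26 further lineage factors, 21 had a near EZH2 peak (80.8%, interval 62.1 to 91.5) and 6 a near PHF13 peak (23.1%, 11 to 42.1). The strongest near EZH2 peak of that list was at NKX6-2 (−log10 q 42.8). Peaks of both antibodies were near 5 of these genes, among them RFX6, HNF4A, NR5A2 and MYT1, of which NR5A2, an acinar nuclear receptor, and MYT1 had the strongest PHF13 peaks (−log10 q 27.2 and 9.18). The PHF13 peak of HNF4A (−log10 q 2.27) was below the limit of 3 stated for PHF13 peak calling. Genes that the lineages produce were also counted. Of 13 acinar product genes, 3 had an EZH2 peak and 3 a PHF13 peak (23.1% each, interval 8.18 to 50.3), and 0 had both. REG1A had the strongest EZH2 peak (−log10 q 5.37), and CELA3A and CTRB1 the strongest PHF13 peaks (4.6 and 2.79), in gene families with near-identical copies where read placement is uncertain. Of 12 islet product genes, 4 had an EZH2 peak (33.3%, interval 13.8 to 60.9) and 3 a PHF13 peak (25%), with both at PCSK2 and SLC30A8. Neither was near 7 of the 12 (58.3%). Of the hormone genes, INS, SST and PPY had neither, and GCG had an EZH2 peak (−log10 q 3.61). For either antibody, the intervals of the acinar and islet lists include the share of all protein-coding genes. The intervals of both lists overlap that of the 9 factors for EZH2, and CpG-rich start sites were found at 0 of the 13 acinar and 4 of the 12 islet genes, against 8 of the 9 factors. CHGB and PCSK2 had the strongest EZH2 peaks there (−log10 q 8.42 and 5.8), and no PHF13 peak of the islet list exceeded a −log10 q of 1.83, reached at SLC30A8.

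The 8 ductal product genes, which belong to the lineage of PANC-1, were counted in the same way. A PHF13 peak was near 5 of them (62.5%, interval 30.6 to 86.3), against 31.2% of all protein-coding genes, a share within that interval. An EZH2 peak was also near 5, against 30.0% of all protein-coding genes. Both were near KRT19, CA2, MUC1 and SLC4A4, against 12.6% of all protein-coding genes. The PHF13 peak of CA2 (−log10 q 2.95) was below the limit of 3 stated for PHF13 peak calling. KRT7, a keratin of simple epithelia, had PHF13 peaks only, the strongest with a −log10 q of 11.7, followed by MUC1 at 9.02. CA2 and SLC4A4, which serve bicarbonate transport, had the strongest EZH2 peaks of that list (−log10 q 22.7 and 21.4). The intervals of the ductal genes overlap those of the 9 factors for either antibody. Among 80 relatives of the factors in the SOX, GATA, FOX, NKX and ONECUT families, 40 had a near EZH2 peak (50%, interval 39.3 to 60.7), 19 a near PHF13 peak (23.8%, 15.8 to 34.1), and 8 both, namely FOXI3, FOXK2, FOXN2, FOXN3, FOXO6, FOXP1, NKX2-3 and SOX5. The PHF13 peaks of FOXO6, NKX2-3 and SOX5 (−log10 q 2.57, 2.64 and 2.9) were also below that limit. Among these relatives, the strongest near peaks were at FOXI3 and NKX6-2 for EZH2 (−log10 q 58.1 and 42.8) and at FOXK2 and FOXJ3 for PHF13 (49.6 and 12.7). The 66.7% of the 9 factors with EZH2 lay between the shares of the family relatives and of the further lineage factors, and its interval overlapped both. Some relatives, FOXA1, SOX17, ONECUT2 and NKX6-2, are in both of these lists.

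**Figure D4:**
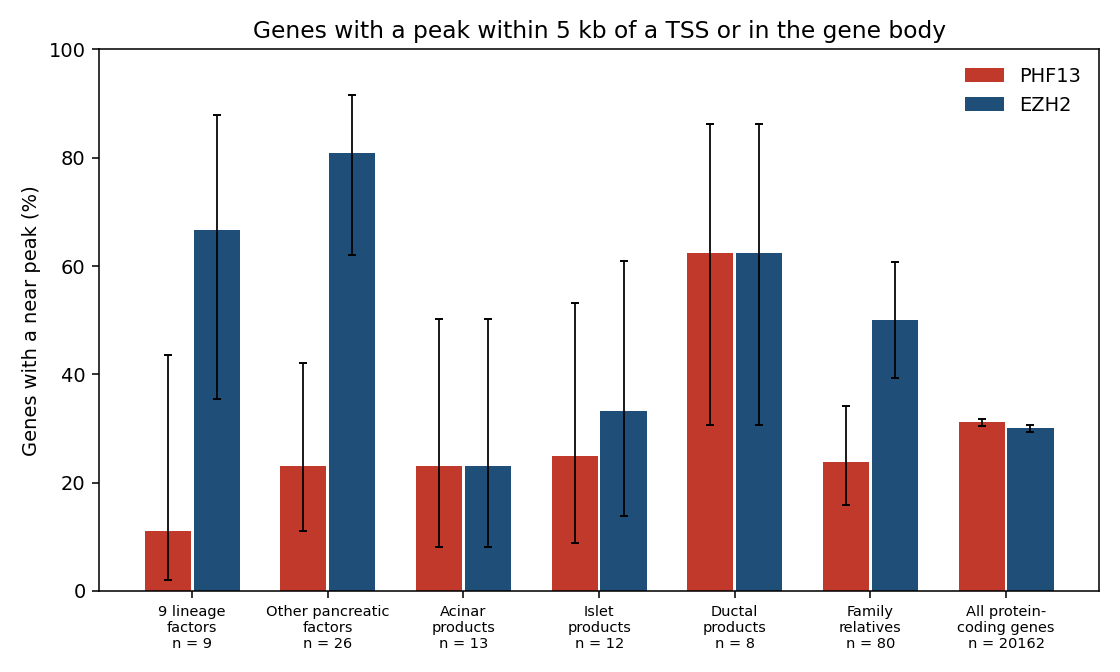
Share of genes in percent (y axis) with a PHF13 (red) or an EZH2 (blue) peak within 5 kb of a TSS or in the gene body, for the 9 factors, 5 other gene lists and all protein-coding genes, with 95% Wilson intervals as error bars. EZH2 stands at 66.7% and PHF13 at 11.1% of the 9 factors, whereas both are close to 30% of all protein-coding genes. The PHF13 interval of the 9 factors includes the share of all protein-coding genes.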

How the data were processed

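ChIP-seq peaks from PANC-1 cells were analysed, with 1 PHF13 and 1 EZH2 library, each set against Input, and groups taken from the labels. Per the labels and the methods, the authors trimmed reads with Trim Galore 0.4.1, aligned them to hg19 with Bowtie 2 2.4.1, took out duplicates (Picard) and used MACS2 2.2.7.1 for peak calling. The deposited values are the fold enrichment at the summit (a ratio of pileup to local background), −log10 p, −log10 q and a score of 10 times −log10 q. The weakest −log10 q was 1.3 in the PHF13 and 1.31 in the EZH2 list, looser than the limit in the methods for PHF13, and the EZH2 list holds narrow peaks although broad calling is described; both were used as deposited. Total read numbers are unknown.

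Coordinates are 1-based on GRCh37 (hg19) with GENCODE release 44. Fragments and background at each summit were solved from fold and p, and 100% of peaks had exactly 1 solution within a relative error of 0.0001. The lowest background of a list is its genome-wide floor. GC content and CpG ratio were taken over 500 bp and motifs over 200 bp at the summit, and a peak was multi-copy when the median 24-mer in 100 bp there occurred more than once. Python 3.11.15, SciPy 1.17.1 and pandas 2.3.3 were used, and distance calls and summit solutions were checked on simulated data. The genes and lists were chosen with earlier results of these data known, and the CpG-rich and single-copy comparison sets and the medians without GATA6 and ONECUT1 after the data were seen. Named in other lists are genes with near peaks of both antibodies and the 2 with the highest −log10 q for each, except items that are not reported here. INS, SST, PPY and GCG were named after their values were seen.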

Additional observations from a re-analysis of the deposited data

How the results depend on the processing

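Of 45 recomputed values, 40 stayed within 1.5 times the reported one. The number of factors with a near EZH2 peak was 6 under 7 of the 8 alternatives and 7 with a TSS distance of 10 kb, which added PTF1A. With a −log10 q of at least 5, PHF13 was near 0 factors, since the FOXA2 peak was lost, and 14 EZH2 peaks and 1 PHF13 peak remained within 100 kb, the latter downstream of SOX9. With a −log10 q of at least 3, which is the limit the methods state for PHF13, 3 PHF13 peaks remained within 100 kb. With the window cut to 50 kb from the gene bodies and no limit on q, 2 PHF13 peaks remained. Peaks of both antibodies were near 0 factors under each alternative for near peaks. This count could rise only with a TSS distance of 10 kb, since the other alternatives can only remove peaks. The count of PHF13 peaks that overlap an EZH2 peak, already 0, could rise under only 1 alternative, a gap of up to 1 kb, and was 0 there too. Such fixed counts of 0 are among the 40 values that stayed. No paired analysis was possible because each group has 1 library. The PHF13 results rest on 5 peaks of 16 to 38 fragments. A higher Input background at near sites of PDX1, GATA6, NKX6-1 and ONECUT1 raised the height needed for a call at those sites. Whether PHF13 peaks were missed for this reason was not tested.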
